A study of Homo sapiens with 6 samples.

Results

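The mitochondrially encoded RNAs are the transcripts of the small circular genome that mitochondria keep. They were taken as the rows of a gene count table whose symbol starts with MT-, which gave 37 of 53719 rows: 13 protein-coding, 2 ribosomal RNA (rRNA) and 22 transfer RNA (tRNA) rows. The RNA was total RNA of the human embryonic stem cell line H9, kept in RSeT, a medium sold for naive-like culture. All 6 libraries came from cells transfected with a gapmer, an antisense oligonucleotide that directs RNase H to the RNA it pairs with, and RNA was taken 48 h later. In 3 libraries (a, b and c of the ALR knockdown group) the gapmer targeted ALR, the alpha satellite RNA made from centromere repeats, and in 3 (control a, b and c) it was a control gapmer. The labels do not say whether the 3 libraries of a group came from separate cultures, so p-values measure only the spread between these libraries, which may be technical.

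Both strands of mitochondrial DNA are copied into long precursor RNAs by the single-subunit polymerase POLRMT. The precursors are cut at the tRNAs that lie between the other genes, which frees the mRNAs and rRNAs. The mRNAs encode core subunits of respiratory complexes I, III and IV and of the ATP synthase, and the 12S (MT-RNR1) and 16S (MT-RNR2) rRNAs build the mitochondrial ribosome that translates them. The proteins that copy, cut, modify and stabilise these RNAs are encoded in the nucleus and imported.

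The gene sequences show which rows can share reads. MT-ATP8 is shown because its last 46 bases (in capitals; 22.2% of its 207 bases) are also the first bases of MT-ATP6, so that reads from there belong to both rows. It lies at chrM:8366-8572 on the plus strand (GENCODE release 29, human assembly GRCh38; the submitters' processing notes name hg38).
MT-ATP8: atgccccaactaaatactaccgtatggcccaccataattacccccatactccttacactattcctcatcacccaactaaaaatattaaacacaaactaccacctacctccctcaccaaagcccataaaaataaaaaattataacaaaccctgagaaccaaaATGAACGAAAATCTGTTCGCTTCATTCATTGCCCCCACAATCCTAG
MT-ND4L shares 7 bases with MT-ND4, MT-TI and MT-TQ share 3 on opposite strands, and MT-TC with MT-TY and MT-ATP6 with MT-CO3 share 1 each.

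Of the tRNA rows, 4 are shown because they held most of the tRNA counts. MT-TC (tRNA for cysteine, chrM:5761-5826), MT-TN (asparagine, chrM:5657-5729), MT-TY (tyrosine, chrM:5826-5891) and MT-TP (proline, chrM:15956-16023) all lie on the minus strand. Capitals mark the anticodon, found as the anticodon letters after a T with the best paired stem around a loop of 7 bases (5 of 5 pairs in each).
MT-TC: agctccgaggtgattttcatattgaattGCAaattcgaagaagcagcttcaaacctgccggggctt
MT-TN: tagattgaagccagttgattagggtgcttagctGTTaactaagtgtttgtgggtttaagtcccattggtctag
MT-TY: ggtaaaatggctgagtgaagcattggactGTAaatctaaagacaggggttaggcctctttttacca
MT-TP: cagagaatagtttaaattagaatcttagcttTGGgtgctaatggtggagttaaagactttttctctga
MT-TC and MT-TY are neighbours that share a base, and MT-TN lies close by, in the cluster beside the origin of light-strand replication. MT-TP lies apart from these 3, next to MT-TT and the control region.

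Library totals ran from 25087629 to 36576752 counts. The 37 mitochondrial rows held 613865 to 856958 of these. Of the pluripotency markers, POU5F1, NANOG, LIN28A, SALL4, DPPA4 and TDGF1 were each at 86.9 CPM or more (CPM, a count scaled to the library's total) in every library. Their summed level was 3733 to 4128 CPM in knockdown and 3641 to 3693 CPM in control libraries, without overlap, and its part in the results below was not tested. The members did not move together. LIN28A (1621 to 1872 against 1511 to 1546 CPM) and POU5F1 (124 to 151 against 86.9 to 113 CPM) were higher in all knockdown libraries. DPPA4 was lower in all of them (901 to 912 against 919 to 945 CPM), and NANOG, SALL4 and TDGF1 overlapped. Across all genes tested, 13.2% were higher without overlap and 6.95% lower. SOX2 had 0 counts in all 6 libraries, beside 1363 to 2047 counts of SOX2-OT, the gene it lies within. Of 7 naive-state markers, 5 had a mean above 1 CPM. The highest were TFCP2L1 (23.6 to 31.8 CPM), DPPA3 (17.8 to 22.5 CPM) and KLF4 (16.4 to 19.1 CPM), while KLF17 was at or below 0.362 CPM. The summed level of the naive-state list was 69.5 to 76.6 CPM in knockdown and 66.5 to 74.2 in control libraries. Summed levels of the other lists overlapped between the groups: fibroblast (86.7 to 94.2 against 89.5 to 102), trophectoderm (54.4 to 56.9 against 54.8 to 61.8), endoderm (1.99 to 3.51 against 1.78 to 2.42), neural (1.96 to 2.46 against 1.69 to 2.82) and mesoderm markers (0.478 to 0.942 against 0.277 to 0.478). COL1A1 and COL1A2 carried the fibroblast sum and TFAP2C the trophectoderm sum, while LUM, COL3A1 and DCN were at or below 0.398 CPM in every library. The level of alpha satellite RNA itself was not analysed here.

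No mitochondrial row differed between the groups past the threshold. Of the 37 rows, 35 had enough counts to be tested, and 0 of them passed an adjusted p of 0.05 with edgeR's quasi-likelihood test (Benjamini-Hochberg over all 19721 genes tested, of which 0.786% passed, 0.137% higher and 0.649% lower). At an unadjusted p under 0.05 there were 7, all higher in knockdown libraries, where 14.3% of all genes were under that value and 6.68% were under it and higher. DESeq2's Wald test called 0 rows and had 0 with an unadjusted p under 0.05, and limma-voom called 0 and had 8. The lowest adjusted p of any row was 0.236, for MT-ATP8.

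The classes nevertheless did not look alike. All 13 protein-coding rows had a log2 fold change above 0 (median 0.30, range 0.11 to 0.64), both rRNA rows were below 0, and 16 of 20 tested tRNA rows were above 0 (median 0.10). Over all genes tested, 54.4% were above 0 and the median was 0.02. The 12 heavy-strand mRNA rows share promoters and precursors, while MT-ND6 is copied from the light strand. All 13 rows come from the same libraries, so their common sign is not 13 separate observations. The libraries that carried these class patterns were knockdown c for the rRNAs and control c for the mRNAs and tRNAs, as the values per library show. Without control c, 8 of 21 tested tRNA rows were above 0 (median -0.12), and without both knockdown c and control c 9 of 20 were (median -0.12).

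The protein-coding rows held 2.46%, 2.37% and 2.40% of all counts in the knockdown libraries (in the order a, b, c, as in all lists of values here). They held 2.32%, 2.25% and 1.64% in the controls. The 95% Wilson interval of control c was 1.632 to 1.640%. Such intervals treat each count as independent and leave out the spread between libraries. PCR copies of a molecule were not told apart, so the intervals may be too narrow even for the error of counting. All 3 knockdown libraries lay above all 3 controls, but control a and b were far closer to the knockdown libraries than to control c. The means were 2.41 ± 0.0488% and 2.07 ± 0.376% (SD, n = 3 each; difference 0.345 percentage points; two-sided exact permutation p = 0.10, which 3 against 3 cannot go below, and 0.30 adjusted over the 3 classes). Without control c the difference was 0.129.

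The rRNA rows held 0.148%, 0.156% and 0.0247% of counts in knockdown, and 0.161%, 0.148% and 0.108% in control libraries. Knockdown c stood alone, with a 95% Wilson interval of 0.0241 to 0.0253%, and the other 5 libraries of both groups overlapped. The group means were 0.110 ± 0.0737% and 0.139 ± 0.0274% (SD, n = 3 each; difference -0.0294 percentage points; exact permutation p = 0.60, two-sided, adjusted 0.90). Without knockdown c the difference was 0.0131, of the opposite sign.

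The tRNA rows held 0.0170%, 0.0185% and 0.0175% in knockdown and 0.0187%, 0.0177% and 0.0127% in control libraries. The groups overlapped, and control c was again the lowest library (difference 0.00127 percentage points; exact permutation p = 0.90, two-sided, adjusted 0.90). Without control c the difference was -0.000562, of the opposite sign. In bulk RNA, fewer mitochondria per cell, less RNA per mitochondrion and a change in the rest of the library cannot be told apart in such shares.

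**Figure D1:**
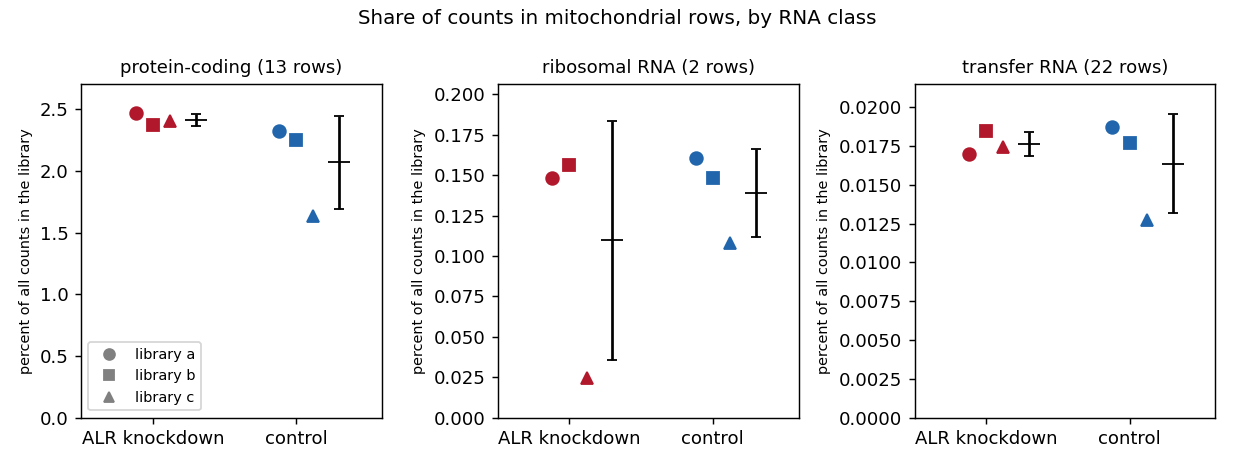
Percent of all counts of a library that fell in the 13 protein-coding, 2 rRNA and 22 tRNA rows of the mitochondrial genome (y axes from 0, a scale for each panel). Symbols are libraries a, b and c of each group and bars are the mean ± SD of 3 libraries. Control c was the lowest library in the mRNA and tRNA panels (1.64% and 0.0127%), and knockdown c was the lowest in the rRNA panel (0.0247%).

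The 12S and 16S rRNA rows showed the largest library effect of any mRNA or rRNA row. MT-RNR1 (ENSG00000211459.2, chrM:648-1601, plus strand), the RNA of the small mitochondrial ribosomal subunit, had 450, 456 and 57.4 CPM in knockdown and 432, 422 and 281 CPM in control libraries. MT-RNR2 (ENSG00000210082.2, chrM:1671-3229, plus strand), the RNA of the large subunit, had 1030, 1108 and 189.6 CPM in knockdown and 1175, 1062 and 802 CPM in control libraries. Knockdown a and b were level with control a and b in both rows, and only knockdown c was far below them.

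In knockdown c, the level of MT-RNR1 was 0.127 times the mean of knockdown a and b, and that of MT-RNR2 was 0.177 times. In the same library the 13 mRNA rows were at 0.862 to 1.40 times that mean (median 1.02), so the deficit was not shared by the mRNAs. The fitted log2 fold changes were -0.26 ± 0.50 for MT-RNR1 (SE; edgeR adjusted p = 0.858) and -0.41 ± 0.43 for MT-RNR2 (edgeR adjusted p = 0.719). Without knockdown c they were 0.21 and 0.03, both of the opposite sign and not past the threshold.

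The rRNA counts were also low against the mRNA counts of the same library. The rRNA rows made up 5.63%, 6.15% and 1.01% of the mitochondrial counts in knockdown and 6.42%, 6.16% and 6.17% in control libraries. The 28S row of nuclear rRNA (RNA28S5) had 84.4, 7.98 and 3.39 CPM in knockdown and 1.04, 1.28 and 2.57 CPM in control libraries. In that row knockdown c was the lowest of the knockdown libraries but above all controls, and knockdown a was far above the rest. Whether removal of rRNA before sequencing differed between libraries was not tested.

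The near-identical nuclear copies of MT-RNR2 had their lowest counts in the same library, which also had the lowest total. Of 188 rows named as nuclear copies of mitochondrial mRNAs or rRNAs, 53 had any count. The rows of rRNA copies held 163, 190 and 50 counts in knockdown and 120, 407 and 133 in control libraries. Relative to the counts in the 2 rRNA rows this was 0.399%, 0.361% and 0.807% in knockdown and 0.259%, 0.874% and 0.336% in control libraries. Knockdown c was thus not the lowest library in this percentage. MTRNR2L12 had 75, 100 and 16 counts in knockdown and 60, 156 and 55 in control libraries, MTRNR2L8 had 46, 54 and 24 against 37, 134 and 50, and MTRNR2L9 had 38, 36 and 10 against 23, 116 and 27. Knockdown c had the lowest count in all 3 of these rows, and control b had the highest. Copies of mRNAs held 29 to 69 counts per library, at most 0.0103% of the mRNA rows. How the counting treated reads that fit several places was not given in the sources used here.

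The 7 complex I rows, subunits of the NADH dehydrogenase that starts the respiratory chain, had log2 fold changes of 0.25 to 0.64. MT-ND6, the only mRNA copied from the light strand (ENSG00000198695.2, chrM:14149-14673, minus strand), had 92.6, 66.9 and 109 CPM in knockdown and 59.2, 78.8 and 30.7 CPM in control libraries. Knockdown b lay below control b, so the groups overlapped (0.64 ± 0.26, SE; edgeR adjusted p = 0.286).

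MT-ND3 had 148, 128 and 120 CPM against 95.7, 124 and 57.7 CPM (0.49 ± 0.20; edgeR adjusted p = 0.287). MT-ND4L had 181, 152 and 219 CPM against 149, 152 and 80.1 CPM (0.50 ± 0.20; edgeR adjusted p = 0.281). In both rows a knockdown library lay below control b.

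MT-ND5 had 1722, 1565 and 1571 CPM against 1366, 1521 and 822 CPM (0.36 ± 0.17; edgeR adjusted p = 0.351). It was the complex I row whose groups did not overlap, although control b was close to knockdown b and c. MT-ND4 had 1908, 1722 and 1742 CPM against 1628, 1738 and 918 CPM (0.30 ± 0.18; edgeR adjusted p = 0.472).

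MT-ND1 had 1088, 918 and 1025 CPM against 969, 981 and 473 CPM (0.29 ± 0.20; edgeR adjusted p = 0.550). MT-ND2 had 1145, 1067 and 1120 CPM against 1070, 1082 and 588 CPM (0.25 ± 0.17; edgeR adjusted p = 0.544). In these rows control a and b lay inside the knockdown range and control c alone was low. Without control c the log2 fold changes were 0.02 for both.

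The single complex III row had one of the smaller fold changes. MT-CYB, the cytochrome b subunit (ENSG00000198727.2), had 1560, 1527 and 1606 CPM in knockdown and 1607, 1487 and 1013 CPM in control libraries (0.17 ± 0.13; edgeR adjusted p = 0.618). Control a and knockdown c were the highest libraries, level with each other, and control c was the lowest. Without control c its log2 fold change was -0.01.

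The 3 complex IV rows, the catalytic core of cytochrome c oxidase, included the most abundant mRNA rows, MT-CO1 and MT-CO3, whose fold changes were also the smallest of the 13. MT-CO1 (ENSG00000198804.2) had 10022, 10107 and 10336 CPM in knockdown and 10073, 9275 and 8446 CPM in control libraries (0.11 ± 0.08; edgeR adjusted p = 0.563). MT-CO3 had 3537, 3558 and 3291 CPM against 3418, 3268 and 2550 CPM (0.14 ± 0.10; edgeR adjusted p = 0.554). MT-CO2 had 1926, 1751 and 1585 CPM against 1773, 1667 and 872 CPM (0.26 ± 0.20; edgeR adjusted p = 0.590). MT-CO2 was the row of the 3 in which control c lay farthest from the rest.

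The 2 ATP synthase rows had some of the larger fold changes. MT-ATP6, the membrane subunit beside which protons pass (ENSG00000198899.2, chrM:8527-9207, plus strand), had 1253, 1069 and 1243 CPM in knockdown and 958, 1030 and 483 CPM in control libraries. Its groups did not overlap, with knockdown b near control b (0.50 ± 0.20; edgeR adjusted p = 0.297). MT-ATP8 (ENSG00000228253.1), read from the same mRNA, had 64.6, 51.1 and 80.8 CPM against 46.4, 53.1 and 24.3 CPM (0.64 ± 0.23; edgeR adjusted p = 0.236). The overlap of the MT-ATP8 groups, where knockdown b lay below control b, was thus absent in MT-ATP6.

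MT-ATP6 and MT-ND5 were the tested rows, 2 of 35, in which all knockdown libraries lay above all controls. Across all genes tested 13.2% did so, and 6.95% had all knockdown libraries below all controls, as 0 mitochondrial rows did. MT-TS1, too low to be tested, also had no overlap, with 0.326, 0.653 and 0.359 CPM in knockdown and 0.139, 0.255 and 0.301 CPM in control libraries.

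Control c was low in every mRNA row, but not by a common factor. Relative to the mean of control a and b, it had 0.873 times the level of MT-CO1, 0.763 times that of MT-CO3 and 0.655 times that of MT-CYB. The other 10 mRNA rows were between 0.445 times (MT-ND6) and 0.569 times (MT-ND5). MT-RNR1 was at 0.657 times and MT-RNR2 at 0.717 times, and 19 of the 20 tested tRNA rows were below 1, with a median of 0.672. MT-CO1 therefore made up 51.6% of the mRNA counts in control c, against 40.7 to 43.4% in the other 5 libraries.

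In knockdown c, the mRNA rows farthest above the mean of knockdown a and b were MT-ATP8 (1.40 times), MT-ND6 (1.37 times) and MT-ND4L (1.31 times). These are among the shortest mRNA genes, at 207, 525 and 297 bases. MT-ND3, at 346 bases, did not follow them (0.871 times), and a relation to length was not tested.

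**Figure D2:**
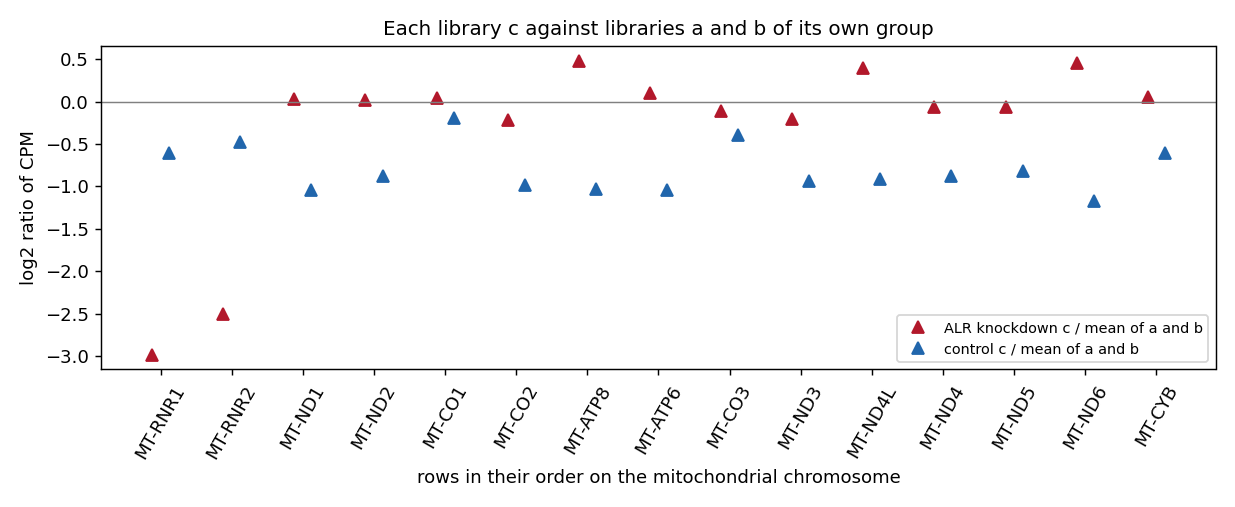
Log2 ratio of CPM in library c to the mean of libraries a and b of the same group, for the 2 rRNA and 13 mRNA rows in their order on the mitochondrial chromosome. Knockdown c (red) is at 0.862 to 1.40 times for the mRNAs and far lower for MT-RNR1 and MT-RNR2 (0.127 and 0.177 times), while control c (blue) is below 0 in all 15 rows.

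The fold changes of the mRNA rows depended on control c. With all libraries the median over the 13 rows was 0.30, without control c it was 0.06 (11 of 13 above 0), and without both control c and knockdown c, a choice made after seeing the values, it was 0.08 (12 of 13 above 0). The rows with the largest values without control c were MT-ATP8 (0.37), MT-ND6 (0.34), MT-ND4L (0.25), MT-ND3 (0.24) and MT-ATP6 (0.23). None of them passed the threshold there. The lowest adjusted p of any mRNA row in edgeR's test was 0.502 without control c, and between 0.180 and 0.341 when any of the other libraries was left out.

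**Figure D3:**
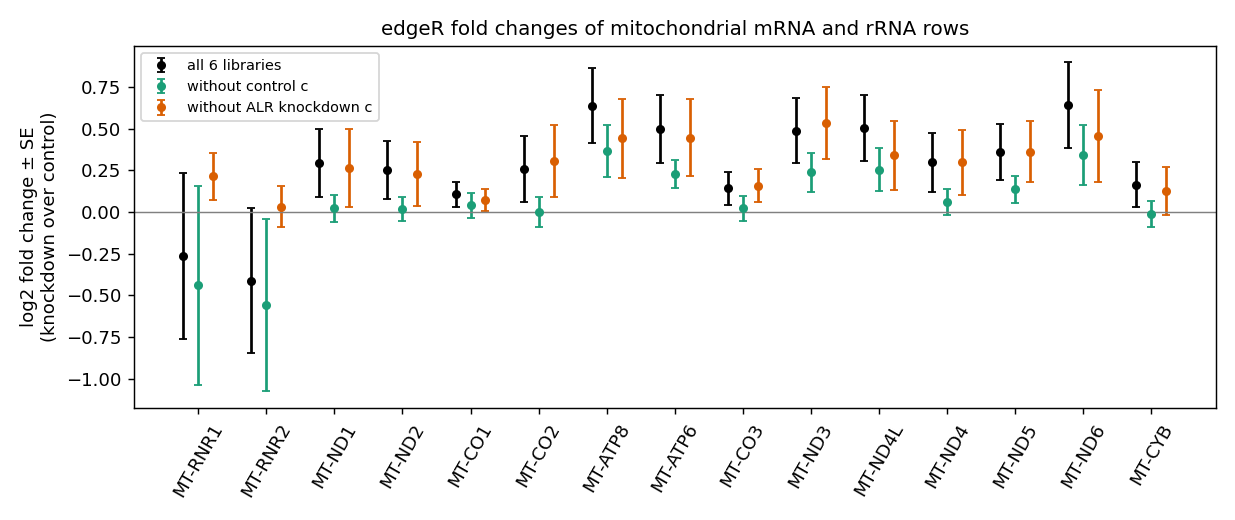
Log2 fold change (knockdown over control) ± SE from edgeR for the 2 rRNA and 13 mRNA rows, with all 6 libraries (black), without control c (green) and without knockdown c (orange). The mRNA values move toward 0 without control c (median 0.06), and the rRNA values are above 0 without knockdown c (0.21 and 0.03).

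Levels were then compared between genes per length, as CPM per kb of gene. Cytochrome c oxidase rows led, with a median over the 6 libraries of 6516 CPM per kb for MT-CO1, 4279 for MT-CO3 and 2499 for MT-CO2, an order that held in all 6 libraries. MT-ATP6 (1541), MT-CYB (1353) and MT-ND4 (1256) followed. MT-ATP6 was above MT-CYB in 4 of 6 libraries and MT-CYB above MT-ND4 in 5 of 6, so that these neighbours were not told apart in every library. MT-ND2 (1033) and MT-ND1 (1020) were next, with MT-ND2 the higher in 5 of 6, and MT-ND5 was at 852.

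The rRNAs stood in the lower part of the order, at 671 CPM per kb for MT-RNR2 and 448 for MT-RNR1, the former below 9 and the latter below 10 of the 13 mRNAs. The effect of any rRNA removal before sequencing on these levels was not tested, so their place holds for the counts in these libraries only. Of the rest, MT-ND4L was at 512, MT-ND3 at 354, MT-ATP8 at 252 and MT-ND6 at 139. MT-ND6 was below MT-ATP8 in all 6 libraries. Although MT-ATP8 and MT-ATP6 are parts of the same mRNA, the MT-ATP6 median was the higher by far. The same held for MT-ND4 over MT-ND4L, which also share an mRNA. The lengths used were those of the whole genes, shared bases included. How the counting treated reads that overlap neighbouring rows was not given, and its part in these differences was not tested.

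**Figure D4:**
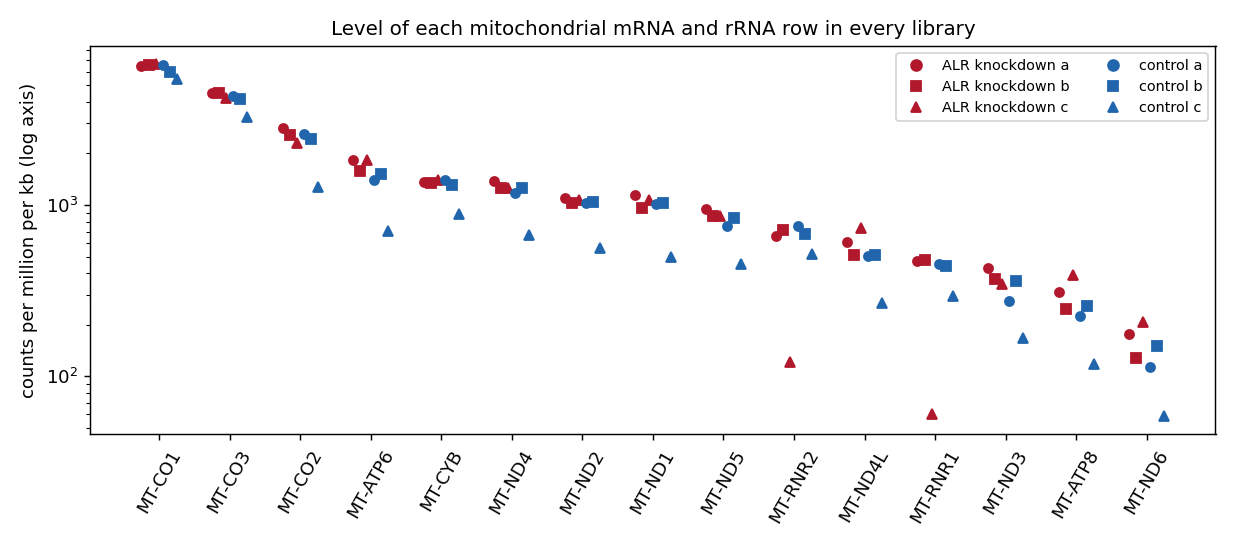
CPM per kb of gene (log axis) of the 13 mRNA and 2 rRNA rows in every library, in descending order of level. MT-CO1 is the highest (median 6516) and MT-ND6 the lowest (median 139). The red triangles of knockdown c drop out of the line at MT-RNR2 and MT-RNR1, and the blue triangles of control c are the lowest points of the mRNA rows.

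The 22 tRNA rows, whose genes are 59 to 75 bases long, had few counts, 4382 to 6223 per library in all. MT-TC, MT-TP, MT-TN and MT-TY held 71.0 to 72.9% of them, and the 8 light-strand rows held 73.8 to 76.0%. The other 18 rows were each at or under 478 counts in every library, and 12 of the 22 had a mean count under 50. The labels' protocols name a bead size selection, whose effect on such short RNAs was not tested.

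MT-TC had 54.4, 57.3 and 50.7 CPM in knockdown and 54.8, 61.8 and 34.1 CPM in control libraries (0.08 ± 0.16; edgeR adjusted p = 0.860). MT-TP had 28.2, 29.3 and 30.3 CPM against 32.6, 29.4 and 23.1 CPM (0.02 ± 0.11; edgeR adjusted p = 0.951). MT-TN had 26.0, 29.1 and 28.7 CPM against 30.4, 20.8 and 22.5 CPM (0.16 ± 0.13; edgeR adjusted p = 0.600). The groups overlapped in all 3, and control c was the lowest library for MT-TC and MT-TP. The log2 fold change of MT-TN was 0.35 without control a, 0.051 without control b and 0.10 without control c.

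MT-TY had 14.5, 16.1 and 14.8 CPM in knockdown and 16.6, 16.9 and 10.6 CPM in control libraries (0.02 ± 0.16; edgeR adjusted p = 0.971). Control a and b were above all 3 knockdown libraries and control c below them. Without control c the log2 fold change was -0.18 for MT-TY, -0.14 for MT-TC and -0.11 for MT-TP, the opposite sign to that with all libraries, and none passed the threshold.

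The largest fitted changes belonged to tRNA rows with few counts. MT-TW (tryptophan) had 29, 27 and 33 counts in knockdown and 13, 26 and 15 in control libraries (0.87 ± 0.40; edgeR adjusted p = 0.349). MT-TK (lysine) had 26, 15 and 11 counts against 11, 15 and 6 (0.81 ± 0.51; edgeR adjusted p = 0.511). The log2 fold change of MT-TK was 0.38 without knockdown a and 0.46 without control c. At these counts, differences of this size did not pass the test. MT-TF (phenylalanine), which opens the heavy-strand precursor ahead of MT-RNR1, had 13, 13 and 0 counts in knockdown libraries and 6, 16 and 4 in controls. A count of 0 in knockdown c allows up to 0.120 CPM (3 counts). MT-TV (valine), between the rRNAs, had 4, 1 and 1 counts against 6, 5 and 3 and was not tested.

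The remaining tRNA rows had log2 fold changes from -0.34 (MT-TQ) to 0.70 (MT-TL2). MT-TL2 (leucine) had an unadjusted p under 0.05, with 151, 418 and 251 counts in knockdown and 234, 141 and 164 in control libraries. Its groups overlapped, since knockdown a lay below control a in CPM (5.47 and 8.12).

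**Figure D5:**
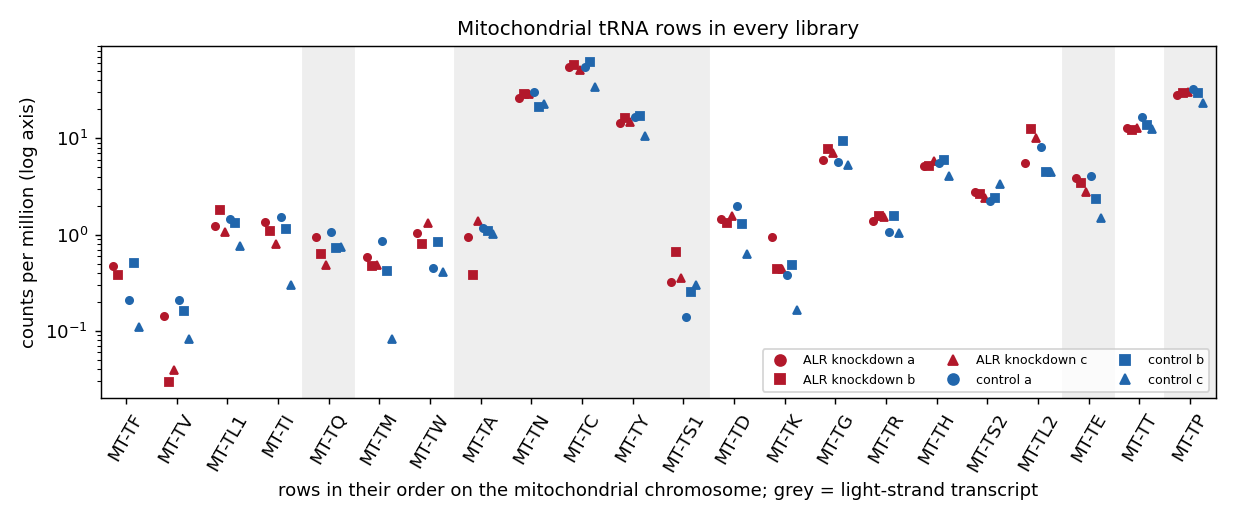
CPM (log axis) of the 22 tRNA rows in every library, in their order on the mitochondrial chromosome, with light-strand transcripts on grey; a library with 0 counts has no point. MT-TC, MT-TN and MT-TY in 1 light-strand cluster, and MT-TP at the end, are the highest of the light-strand rows, and groups overlap in these 4.

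Ratios within a library need no scaling between libraries, and 6 were compared by exact permutation tests (two-sided, adjusted over the 6). The ratio of rRNA to mRNA counts was 0.0600, 0.0660 and 0.0103 in knockdown and 0.0692, 0.0661 and 0.0662 in control libraries. All knockdown values were below all controls, knockdown b by a narrow margin (log2 difference -0.96; exact permutation p = 0.10, the smallest possible, adjusted 0.40). Without knockdown c the log2 difference was -0.09.

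The ratio of tRNA to mRNA counts was 0.00689, 0.00780 and 0.00726 in knockdown and 0.00806, 0.00788 and 0.00777 in control libraries (log2 difference -0.11; exact permutation p = 0.20, adjusted 0.40). Without knockdown a it was -0.07. Control c was close to control a and b in this ratio and in that of rRNA to mRNA, unlike in the shares of all counts. MT-ND6 against the 12 heavy-strand mRNAs was 0.00377, 0.00283 and 0.00455 in knockdown and 0.00256, 0.00352 and 0.00188 in control libraries (log2 difference 0.51; exact permutation p = 0.20, adjusted 0.40). The groups overlapped, with control c lowest and knockdown c highest. Without control c the log2 difference was 0.28.

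Complex I against complex IV mRNA counts was 0.406, 0.365 and 0.388 in knockdown and 0.350, 0.400 and 0.250 in control libraries (log2 difference 0.24; exact permutation p = 0.30, adjusted 0.45). Without control c the log2 difference was 0.05. MT-RNR2 against MT-RNR1 was 2.29, 2.43 and 3.30 in knockdown and 2.72, 2.52 and 2.86 in control libraries (log2 difference -0.03; exact permutation p = 0.90, adjusted 1.0). Knockdown c, with the fewest rRNA counts, had the highest value. Light-strand against heavy-strand tRNA counts lay between 2.81 and 3.17 in all 6 libraries (log2 difference -0.01; exact permutation p = 1.0, adjusted 1.0).

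The nuclear genes that make, process and translate these RNAs were followed in 8 lists. Of their 107 tested genes, 0 passed the adjusted threshold, 12 had an unadjusted p under 0.05 (5 of them higher), 55 were above 0 and the median log2 fold change was 0.003. This is beside 0.786% called, 14.3% with an unadjusted p under 0.05 and a median of 0.02 over all genes tested. DESeq2's Wald test called 1 (METTL8), and limma-voom called 0, with 7 and 13 at an unadjusted p under 0.05.

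Of 8 tested genes of mitochondrial transcription, 5 were above 0 (median 0.04). POLRMT, the polymerase, and TFAM, which packs the DNA and opens the promoters, were chosen after their values were seen. POLRMT had 72.0, 82.3 and 77.3 CPM in knockdown and 71.1, 62.9 and 68.9 CPM in control libraries (0.17 ± 0.08; edgeR adjusted p = 0.362). TFAM had 147, 139 and 121 CPM against 115, 135 and 131 CPM, with overlapping groups (0.07 ± 0.08; edgeR adjusted p = 0.736).

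TFB1M, which methylates the 12S rRNA and stands in both the transcription and modification lists, had the smallest p of the former. It had 40.5, 39.0 and 44.2 CPM in knockdown and 49.2, 46.9 and 49.6 CPM in control libraries (-0.26 ± 0.07; edgeR adjusted p = 0.114). All knockdown libraries were below all controls. Without knockdown c, TFB1M passed the threshold (-0.34).

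Of 22 RNA modification genes, 12 were above 0 (median 0.01). METTL8, which methylates mitochondrial tRNAs, had 51.7, 50.03 and 59.6 CPM against 65.8, 63.0 and 65.5 CPM, without overlap (-0.30 ± 0.08; edgeR adjusted p = 0.09997). It passed the threshold without knockdown c (-0.40) and in DESeq2's test (-0.30). Of 8 genes of RNA cleavage and end processing, 1 was above 0 (median -0.06). KIAA0391 (PRORP), the nuclease of mitochondrial RNase P that cuts the 5′ ends of the tRNAs, had 88.7, 84.7 and 87.2 CPM against 92.0, 97.5 and 97.0 CPM (-0.16 ± 0.06; edgeR adjusted p = 0.246).

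Of 14 genes of RNA stability and decay, 8 were above 0 (median 0.02) and 0 had an unadjusted p under 0.05. SUPV3L1, the helicase of the mitochondrial degradosome, had 57.8, 55.7 and 57.8 CPM against 61.2, 64.6 and 59.1 CPM (-0.14 ± 0.06; edgeR adjusted p = 0.360). Of 15 genes of mitochondrial DNA upkeep, 11 were above 0 (median 0.03). TOP1MT, the mitochondrial topoisomerase, had 30.5, 30.7 and 31.5 CPM against 25.3, 26.4 and 23.9 CPM, without overlap (0.27 ± 0.07; edgeR adjusted p = 0.122).

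Of 21 aminoacyl-tRNA synthetase genes, 8 were above 0 (median -0.02), and WARS2, which charges the tryptophan tRNA, had the smallest p (-0.18 ± 0.08; edgeR adjusted p = 0.307). Of 12 translation factors, 6 were above 0 (median 0.003), and TUFM, the elongation factor that brings tRNAs to the ribosome, had 170, 172 and 154 CPM against 146, 146 and 148 CPM (0.14 ± 0.07; edgeR adjusted p = 0.345). Of 8 biogenesis regulators, 4 were above 0 (median -0.01). ESRRB, an orphan nuclear receptor, had 4.82, 3.59 and 2.19 CPM against 1.98, 2.04 and 2.73 CPM (0.62 ± 0.27; edgeR adjusted p = 0.321), and its groups overlapped. Without knockdown a its log2 fold change was 0.36. Of the nuclear genes given above, TFB1M, METTL8, KIAA0391, SUPV3L1 and WARS2 had all knockdown libraries below all controls. POLRMT, TOP1MT and TUFM had all of them above, and TFAM and ESRRB overlapped. Apart from POLRMT and TFAM, these genes were picked by smallest p. Across all genes tested, 6.95% had all knockdown libraries below all controls and 13.2% above.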

How the data were processed

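The authors deposited a single table of unnormalized counts, in which rows are gene symbols and columns are the 6 libraries. Per the submitters' processing notes, Trimmomatic 0.39, STAR 2.7.8a, featureCounts and Subread 2.14.2 and the build hg38 were used. Strand setting, treatment of multi-mapping and overlapping reads, and annotation were not given in the sources used here. Per the labels' protocols, the library kit was directional.

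From the counts, CPM and shares were computed on library totals (25087629 to 36576752), with 95% Wilson intervals. Differences were tested with edgeR 4.0.16 (R 4.3.3): filterByExpr, TMM scaling, quasi-likelihood, group as the only term, two-sided, Benjamini-Hochberg over 19721 genes. Shares and ratios were compared by exact permutation tests in Python (pandas 2.3.3). Alternatives used DESeq2 1.42.0, limma 3.58.1, other scalings and filters, other denominators, the replicate letter as a block and each library left out. The fit was also run on simulated counts, whose outcome is not given here, so the smallest change that could be detected is not stated. Class, strand, length and sequence came from GENCODE release 29, where all 37 rows matched by name. Of the nuclear list genes without a row, 12 were matched through RefSeq synonyms (GRCh38).

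The mitochondrial rows, gene lists and tests were chosen with earlier results of these data known. All mRNA and rRNA rows are given, with the 4 tRNA rows of highest mean count, the 2 of largest fold change, and up to 3 genes past the threshold per nuclear list, or else the gene with the smallest p. MT-TF, MT-TV, MT-TS1, MT-TL2, POLRMT and TFAM were named outside this rule.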

Additional observations from a re-analysis of the deposited data

How the results depend on the processing

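With 3 libraries per group, an exact test of a share or ratio cannot pass 0.05, and rows under 50 counts are poorly determined. The count of mitochondrial rows past the threshold was 0 under the other scalings, the robust fit, DESeq2's Wald test, limma-voom and the filter at a mean count of 50, and whichever library was left out (0 to 0). It was 12 with no low-count filter (11 higher, and MT-RNR2 lower), where the SE of MT-ATP8 was 0.0865 instead of 0.227; the cause of the narrower SE was not tested. Libraries of the same letter did not deviate together (correlations of 1.23e-05, 0.116 and -0.0251 for letters a, b and c). In the fit with the replicate block, 1 mitochondrial row passed (MT-ND3, log2 fold change 0.55) and 1 nuclear list gene (METTL15). The count of nuclear list genes was otherwise 3 with no low-count filter, 1 with DESeq2's Wald test, 0 to 5 when each library was left out (5 without knockdown c) and 2 without both knockdown c and control c.

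Of 491 refits of 29 single rows, 459 kept their direction and side of the threshold, 18 came to pass it and 14 changed sign. Values that changed sign when a library was left out were, as the range over the 6 fits, -0.64 to 0.21 for MT-RNR1, -0.80 to 0.031 for MT-RNR2, -0.0016 to 0.45 for MT-CO2, -0.013 to 0.31 for MT-CYB, -0.14 to 0.26 for MT-TC, -0.11 to 0.14 for MT-TP and -0.18 to 0.13 for MT-TY. Without both knockdown c and control c, MT-RNR1 was 0.055, MT-CYB -0.034, MT-TC -0.092, MT-TP -0.14 and MT-TY -0.16, and the tRNA share differed by -0.000475 percentage points. Left-out ranges of the class shares were 0.129 to 0.472 percentage points for mRNA, -0.0528 to 0.0131 for rRNA and -0.000562 to 0.00244 for tRNA rows. Those of the log2 ratios were -0.19 to 0.073 for MT-RNR2 to MT-RNR1 and -0.054 to 0.020 for light-strand to heavy-strand tRNA rows. Other denominators, the rows of nuclear copies and removal of MT-ATP8 and MT-ND4L changed the sign of none of the shares and ratios they were applied to.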
